A study of Amphiprion ocellaris with 30 samples.

Results

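The genes described here were lower in clownfish larvae exposed to T3 than in DMSO controls and near the control level in larvae exposed to SR9243. They were chosen from the group means of the deposited expression values. A gene was a member when its T3 minus DMSO difference was at or below -1 and its SR9243 minus DMSO difference lay between -0.25 and 0.25, with the 200 genes of highest mean over all libraries left out. The rule found 78 of 22816 genes. Because both differences chose the members, they are given as a description with no test.

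RNA was sequenced from entire wild-type larvae of Amphiprion ocellaris, the common clownfish, 5 days after treatment began, with 10 libraries in each of 3 groups. The beakers were held at 27°C and their sea water contained T3 at 1e-07 M, SR9243 at 1e-07 M, or DMSO, the solvent control, at 0.0001%. The word IOP stands in each T3 title without an explanation in the labels, so the T3 values are those of libraries labelled T3 and may include a further treatment. Whether the T3 and SR9243 beakers also held DMSO, whether a library is 1 larva, and which beaker a library came from are not stated in the labels. The p-values printed here thus rest on library-to-library spread, which may be partly technical or shared within a beaker.

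T3 (triiodothyronine) is the active thyroid hormone. It binds nuclear thyroid hormone receptors, which sit on DNA with the retinoid X receptor and raise or lower transcription of their target genes, and in fish it drives the change from larva to juvenile. LXR, the liver X receptor, also pairs with the retinoid X receptor and controls cholesterol and lipid genes; the series title calls SR9243 an LXR antagonist. Transcripts lowered by thyroid hormone can include larval programmes that end at metamorphosis and genes under hormonal feedback. The deposited table names genes by Ensembl ID only and the reference gene table pairs none of these IDs with a symbol, so no member can be assigned a name, a role, a position or a sequence here, and the whole-larva label could not be checked against tissue markers. IDs are given for the 2 members with the largest difference; the others are identified by rank, where rank 1 has the most negative T3 minus DMSO difference.

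Values are the authors' variance-stabilised counts, which behave like log2 counts where they are large and are compressed towards the lowest value, 2.88. Depth is unknown, since the table holds no library totals. The number of genes at the lowest value ranged from 618 to 730 in T3, from 592 to 705 in SR9243 and from 558 to 701 in DMSO libraries. All 78 members passed the filter for testing, and 70 never touched that lowest value in any of the 30 libraries. DMSO library 7 stood apart: among the 10 DMSO libraries it was the farthest from the group median for 37 members (47.4%) and for 39.1% of all tested genes. Membership by the rule, limma calls for SR9243 against DMSO and the co-varying groups are given below with and without it. Other results include it unless a sentence says otherwise. In whole larvae, fewer cells of a type and less RNA per cell cannot be told apart.

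Among 494 genes whose T3 minus DMSO difference was at or below -1, the SR9243 difference was below -0.25 for 393 and above 0.25 for 14. A further 9 met both limits but were among the 200 most abundant. The mirror-image limits, with T3 at least 1 above DMSO, held for 108 genes. Near the T3 limit, the last 3 members lay at -1.0007, -1.0028 and -1.0057, and the first 3 genes outside at -0.996, -0.984 and -0.983. At the lower SR9243 limit the last 3 members lay at -0.244, -0.241 and -0.232, against -0.251, -0.252 and -0.255 just outside. At the upper limit the members lay at 0.245, 0.217 and 0.215, against 0.254, 0.265 and 0.267. The member with the largest T3 difference is also the one nearest to the lower SR9243 limit.

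**Figure D1:**
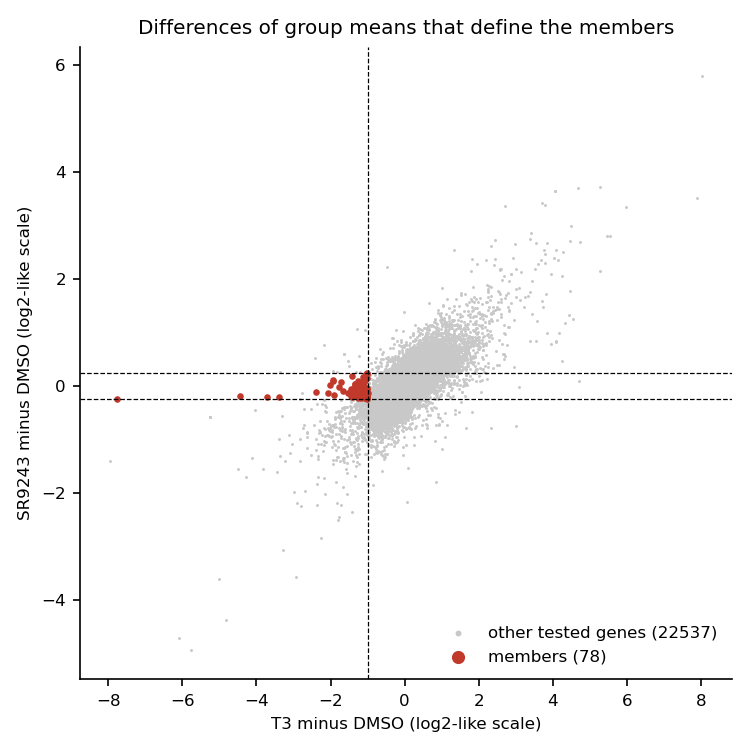
SR9243 minus DMSO difference of group means (y axis) against T3 minus DMSO difference (x axis) for all tested genes, on the log2-like scale; members are red and dashed lines mark the limits. Most of the 78 members sit close to the T3 limit, and 4 lie beyond -3.

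The differences with T3 were uneven in size. The members' median T3 minus DMSO difference was -1.16, beside -0.015 over all tested genes. It lay above -1.5 for 64 members, between -2 and -1.5 for 7, and at or below -2 for 7, of which 4 were at or below -3. A few members stood well beyond the many near the limit, a shape that a limit on this same difference favours.

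ENSAOCG00000003252 had the largest difference. Its lowest, median and highest values were 3.86, 4.38 and 4.81 in T3 libraries, 11.29, 11.70 and 12.44 in SR9243 libraries, and 11.19, 12.08 and 12.70 in DMSO libraries. Every T3 library was far below every other library, while SR9243 and DMSO overlapped almost wholly. The means were 4.29 ± 0.34 (SD, n = 10) with T3, 11.82 ± 0.44 with SR9243 and 12.07 ± 0.45 with DMSO. The difference was -7.78 (SE 0.17) for T3 and -0.24 (SE 0.17) for SR9243 against DMSO. Its T3 values lie in the compressed part of the scale, so the difference understates the ratio of counts.

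ENSAOCG00000004495 followed. Its lowest, median and highest values were 6.90, 7.59 and 8.50 in T3 libraries, 11.38, 11.81 and 12.52 in SR9243 libraries, and 11.06, 12.10 and 13.01 in DMSO libraries. T3 again lay apart from both other groups, and the SR9243 range fell inside the DMSO range. The T3 difference from DMSO was -4.44 (SE 0.23), which corresponds to a 21.7-fold lower level if the scale is read as log2, and the SR9243 difference was -0.18.

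The member at rank 3 was of lower level. It lay between 3.68 and 4.78 in T3 libraries, between 7.24 and 8.39 in SR9243 libraries and between 7.46 and 8.62 in DMSO libraries, a T3 difference of -3.72. The member at rank 4 varied most among T3 libraries of these first 6, from 7.28 in library 10 to 10.19 in library 7, against 11.08 to 12.35 in SR9243 libraries and 10.57 to 13.11 in DMSO libraries; its T3 difference was -3.38. Its highest T3 library was still below its lowest DMSO library, which was library 7.

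At rank 5 was a member whose level stayed well above the compressed range in all libraries. It lay at 10.09 to 11.79 in T3 libraries, 12.79 to 13.66 in SR9243 libraries and 12.79 to 14.003 in DMSO libraries. The T3 difference was -2.39 (SE 0.18), 5.25-fold lower if read as log2. At rank 6 the groups touched: the highest T3 library, at 8.71, exceeded the lowest DMSO library, at 8.48, but not the lowest SR9243 library, at 8.82. The member at rank 7 separated again, with T3 libraries at 8.01 to 9.0, SR9243 libraries at 9.99 to 11.04 and DMSO libraries at 9.73 to 10.84.

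**Figure D2:**
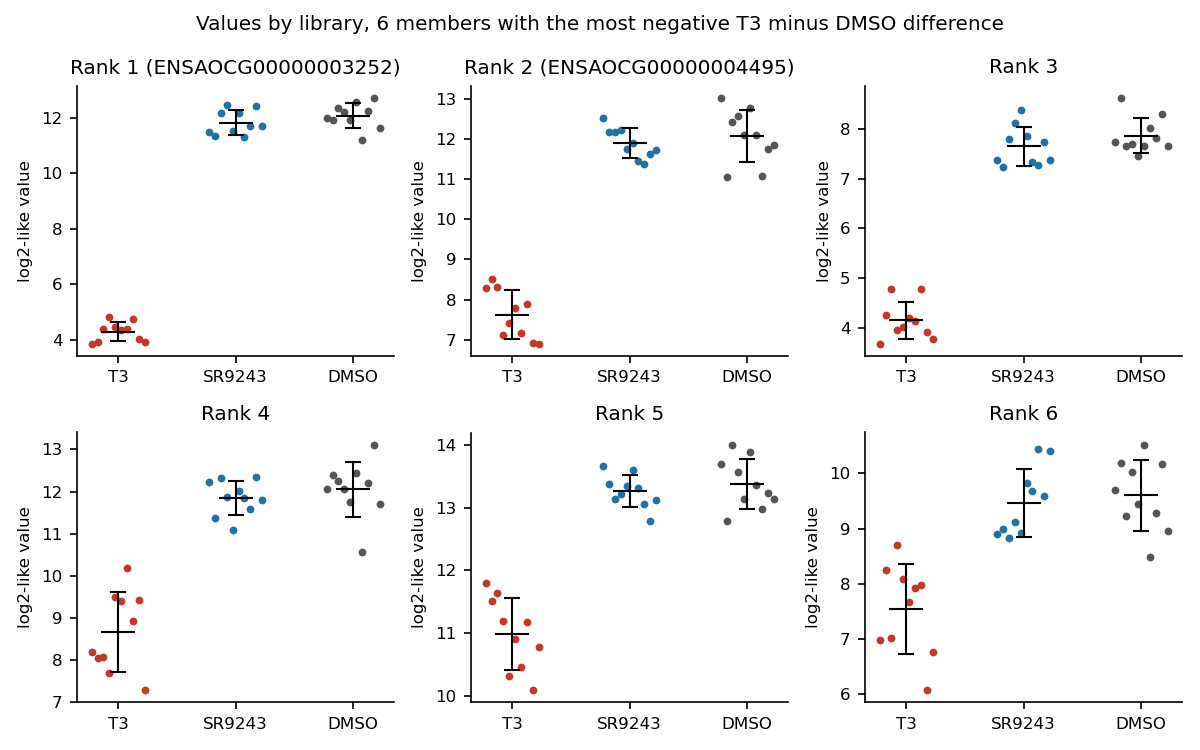
Expression (log2-like value) of the 6 members with the most negative T3 minus DMSO difference; each point is a library, ordered by library number within a group, with mean and SD over 10 libraries. T3 libraries lie below all SR9243 libraries in the 6 panels and below all DMSO libraries in ranks 1 to 5.

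Over the whole list, all 10 T3 libraries lay below all 10 DMSO libraries for 37 of 78 members, where 4.96% of tested genes did so. They lay below all 10 SR9243 libraries for 49 members, where 2.81% of tested genes did so. For 31 members both held, and for 23 neither did, but the shares of all tested genes with both or neither were not computed. The rule used these contrasts, so nothing is read from the counts. The SR9243 and DMSO ranges overlapped for all 78 members, beside 98.3% of tested genes, and the SR9243 window favours such overlap.

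In the limma fit across 22615 genes, with Benjamini-Hochberg adjustment and a threshold of 0.05, 77 of the 78 members were called lower with T3 than with DMSO, beside a background of 25.8%. Against SR9243, 75 members were called lower with T3, beside 17.1%. For SR9243 against DMSO, 0 members were called in limma, beside 29.0% called in either direction, and 1 had an unadjusted p below 0.05. Without DMSO library 7 limma called 3 members there, beside 7240 of the 22615 tested genes. Without DMSO library 2 it called 2, beside 6111, and without DMSO library 10 it called 1, beside 6468. Without DMSO libraries 4 and 7 together it called 6, beside 7514. These contrasts also entered the rule and the counts are given as a description.

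**Figure D3:**
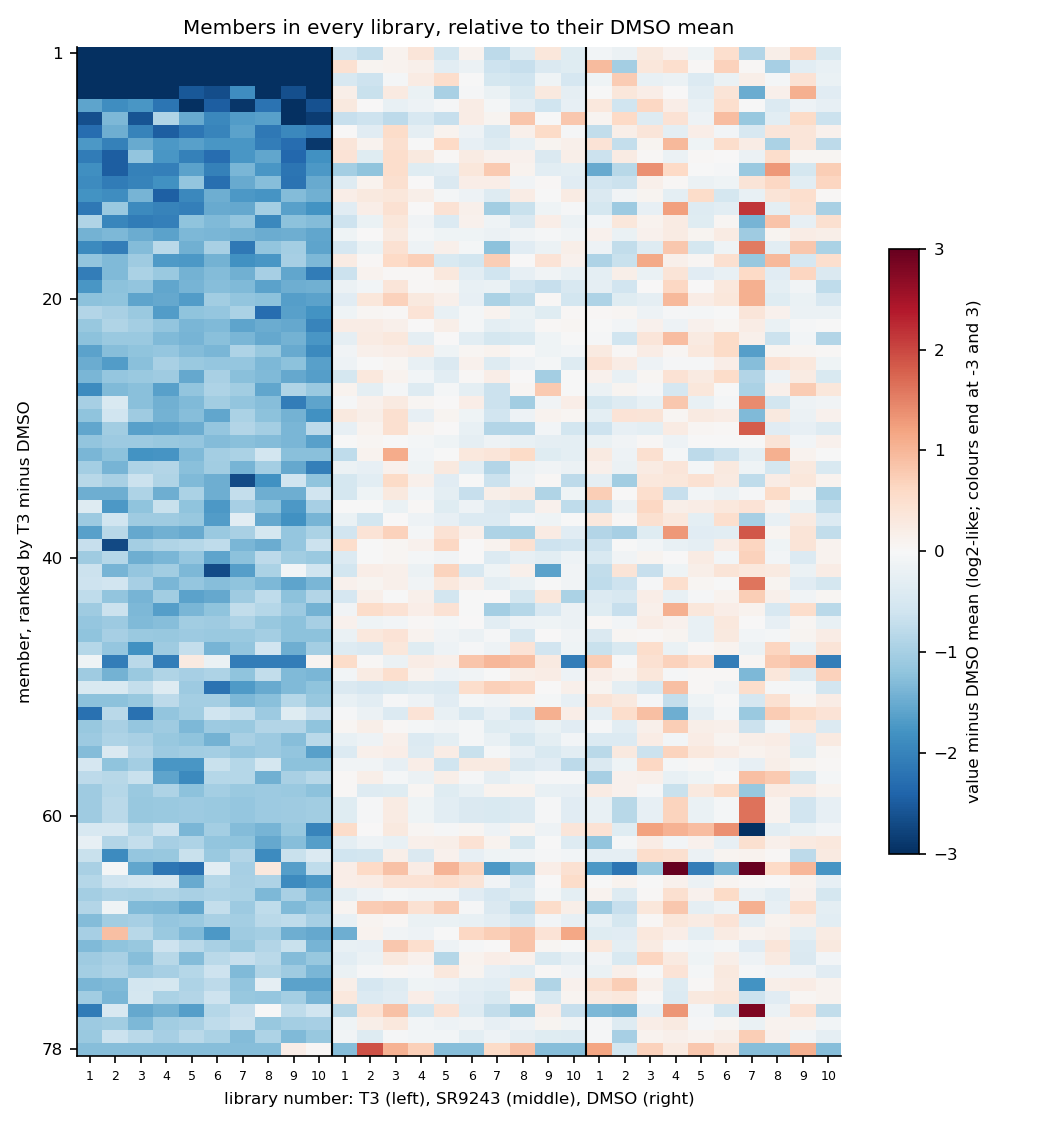
Each row is a member, ranked by its T3 minus DMSO difference, and each column a library; colour is the value minus the member's DMSO mean on the log2-like scale, ending at -3 and 3. The T3 block on the left is lower almost throughout, and DMSO library 7 on the right shows the strongest departures among the DMSO columns.

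A small SR9243 difference does not show that SR9243 left a member at the control level. The SE of the difference ranged from 0.07 to 0.68 among members, with a median of 0.17. Its 95% interval stayed inside -0.25 to 0.25 for 5 of 78 members and reached below -0.25 for 67 and above 0.25 for 39. It reached -1 for 2 members and 1 for 2 members. The member at rank 64, with the SE of 0.68, is in each of these last counts. Its DMSO values include the outlying libraries described below. The rule chose members by this same difference, so the intervals do not keep 95% coverage and the counts are partly fixed by the choice. Matching shares of all tested genes in the window were not computed, so the counts are a description. Within the window, the SR9243 differences leaned down: 59 members (75.6%) were below 0 and 19 above, with a median of -0.13. Of the 14305 tested genes in the same window, 53.9% were below 0. The T3 and SR9243 differences subtract the same DMSO mean, so the T3 limit also favours SR9243 differences below 0. Those 14305 genes were not held to the T3 limit, so nothing is read from the lean.

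Members differed in how near their T3 means lay to the lowest value. A member already low with DMSO also falls in the lowest class, so the classes do not show how far T3 moved it. The T3 mean was below 5 for 16 members, from 5 to 8 for 34 and at least 8 for 28. The median difference from DMSO was -1.12, -1.17 and -1.25 in these 3 classes. At least 1 T3 library was at the lowest value for 8 members, against 2 members with an SR9243 library there and 2 with a DMSO library there. The rule required a lower T3 mean, which favours this order, and the matching shares of all tested genes were not computed. A difference of 1 in the lowest class is compressed relative to one in the highest class, so sizes are not compared between them.

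One pair of members, at ranks 59 and 60, had identical values in all libraries, which leaves 77 distinct profiles. Across all genes, 172 IDs in 83 sets share their values with another ID. Reads of such IDs may have been divided between near-identical copies. The pair is thus 1 profile of uncertain origin, although its IDs enter the counts of members here as 2 members. Its T3 libraries lay between 10.03 and 10.39, its SR9243 libraries between 10.74 and 11.45 and its DMSO libraries between 10.37 and 12.83, with library 7 highest. The T3 difference of -1.07 became -0.78 without DMSO libraries 4 and 7.

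Membership depended on single libraries, most of all on DMSO library 7. With each library left out in turn the rule chose 66 to 91 genes, of which 56 to 76 were among the 78. Without DMSO library 7 it chose 91 genes and kept 56 members: 9 of those lost had moved above the T3 limit, 13 lay below the SR9243 window and 2 above it, with some failing both. Without DMSO libraries 4 and 7 it chose 77 genes and kept 42 members. A member at rank 64 shows the extreme case. It lay at 4.81 to 7.40 in T3 libraries and 5.36 to 8.10 in SR9243 libraries, against 10.48 and 12.40 in DMSO libraries 4 and 7 and 4.90 to 8.08 in the other 8 DMSO libraries. Without DMSO libraries 4 and 7 its T3 difference was 0.045 in place of -1.04, and its SR9243 difference 1.22.

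**Figure D4:**
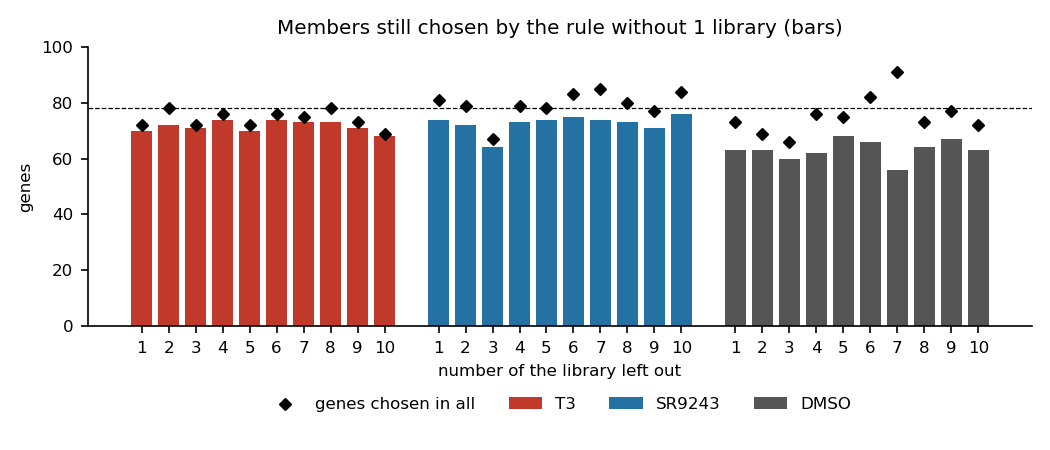
Bars give how many of the 78 members the rule still chose without the library on the x axis, coloured by group, and diamonds the number of genes it then chose in all; the dashed line is at 78. The lowest bar, at 56, and the highest diamond, at 91, belong to DMSO library 7.

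A steadier part of the list was kept whichever library was left out. It held 31 members, with T3 differences from -2.39 to -1.08 and a median of -1.28. Their SR9243 differences ran from -0.19 to 0.11. T3 lay below all DMSO libraries for 22 of them, beside 4.96% of tested genes. It lay below all SR9243 libraries for 23, beside 2.81% of tested genes. The rule still chose 26 of the 31 without DMSO libraries 4 and 7, 30 with group medians and all 31 with library medians set equal. Leaving out DMSO library 4 or 7 alone was part of choosing the 31, which favours the first of these counts. The members at ranks 5 and 7 belong to the 31, whereas those at the first 4 ranks do not. Those 4 had SR9243 differences of -0.24, -0.18, -0.21 and -0.20, near the lower limit of the window. For the 2 named genes the SR9243 difference reached -0.34 and -0.29 without single libraries. Their T3 differences stayed at or below -7.70 and -4.34. These 31 were picked by the values themselves and carry no test.

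Members varied more between libraries of a group than tested genes did in the median. The median SD was 0.35 among T3, 0.31 among SR9243 and 0.46 among DMSO libraries for members, and 0.22, 0.23 and 0.29 for all tested genes in the same groups. The rule acts on differences of means, to which the spread contributes, so these SDs are given as a description. The DMSO SD exceeded the T3 SD for 61 members and the SR9243 SD for 63. Without DMSO libraries 4 and 7 the median DMSO SD was 0.36 for members and 0.23 for all tested genes. A member's DMSO SD then exceeded its T3 SD for 46 members. The matching shares of all tested genes were not computed. With all libraries, the median DMSO SD over all tested genes, 0.29, was also above those of T3 and SR9243. Without DMSO libraries 4 and 7 it was 0.229, beside 0.216 for T3 and 0.230 for SR9243. None of these counts is read as particular to the members.

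Deviations from the group means showed how far members moved together from library to library. Over 30 libraries the median correlation of these deviations between 2 members was 0.068, beside -0.0029 between random pairs of tested genes, as a description. Outlying libraries also entered the means the rule used, so the deviations are not independent of the choice of members. Without DMSO library 7 the median among members was 0.088, and the value for random pairs was not computed. Of 3003 member pairs, 236 had a correlation above 0.5 and 88 below -0.5. These 2 counts include DMSO library 7, and the matching shares of random pairs were not computed. Clustering of the deviations placed 38 members in 4 groups of at least 6, called A to D here, and left 40 outside. With a median correlation of 0.068, the list did not vary together as a single unit.

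Group A held 14 members, among them the identical pair, with a median correlation of 0.73 and T3 differences from -1.67 to -1.003. Averaged over its members, T3 libraries lay between -0.25 and 0.39 from the T3 mean and SR9243 libraries between -0.61 and 0.58 from theirs. DMSO library 7 lay 1.84 and DMSO library 4 lay 0.96 above the DMSO mean, while the other DMSO libraries lay between -0.85 and 0.09. Without DMSO library 7, 12 of the 14 still clustered together, and the median correlation over all 14 was 0.58. The rule then kept 6 of the 14, and the median T3 difference of the 14 was -0.97 in place of -1.16. Without DMSO libraries 4 and 7 together, no more than 9 of the 14 clustered together, and the median correlation over all 14 was 0.45.

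Group B held 9 members, among them ENSAOCG00000003252 and the member at rank 4, with a median correlation of 0.58. DMSO library 7 lay at -1.61 from the DMSO mean in this group, while the other 9 lay between 0.057 and 0.40. Without it the median correlation was 0.22 and no more than 2 of the 9 clustered together, so the group rests on this library. Its median T3 difference was then -1.52 in place of -1.34, and its median SR9243 difference -0.29 in place of -0.058; the rule kept 4 of the 9.

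Groups C and D depended less on DMSO library 7. Group C held 9 members with a median correlation of 0.57, both with and without that library, and the rule kept 8 of them without it, although no more than 5 of the 9 then clustered together. Its DMSO libraries ran from -0.52 in library 10 to 0.62 in library 4. Group D held 6 members with a median correlation of 0.48 either way, of which 5 stayed together, and its DMSO libraries ran from -0.48 in library 2 to 0.70 in library 8. Without DMSO libraries 4 and 7 together, no more than 4 of the 9 in group C clustered together, and the median correlation over all 9 was 0.50. In group D no more than 3 of the 6 then did so, and the median correlation over all 6 was 0.49. The order of the DMSO libraries differed between the 4 groups. Clustering of these same deviations formed the groups, so the correlations within them and the differences between them are a description.

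**Figure D5:**
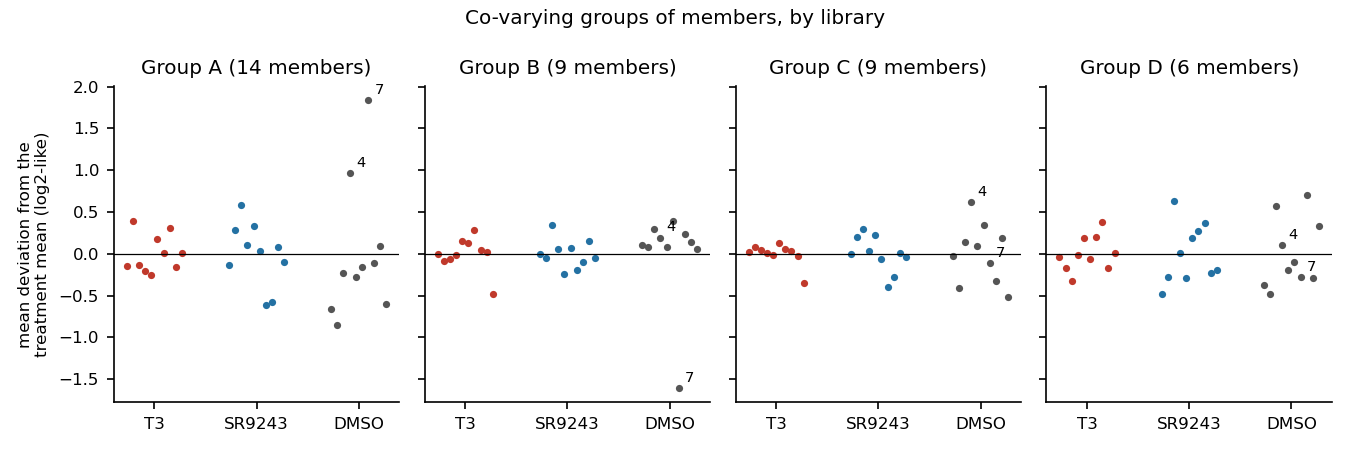
Mean deviation from the treatment mean (log2-like, y axis) over the members of each co-varying group, by treatment; each point is a library, with DMSO libraries 4 and 7 numbered. DMSO library 7 is highest in group A, at 1.84, and lowest in group B, at -1.61.

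Libraries numbered 1 to 5 and 6 to 10 were compared within each treatment, a contrast whose differences do not enter the group means of the rule. The split was chosen because T3 and SR9243 libraries had been seen to fall into 2 sets by number in these same data. That choice favours calls within T3 and SR9243, so the shares and p-values there are a description. No label says what the numbers stand for. Within T3, limma called 2 of 78 members (2.56%), beside 3.15% of all tested genes; within SR9243 it called 2 members, beside 3.82%; within DMSO it called 0, beside 0.0752%, with an unadjusted p below 0.05 for 3 members (3.85%), beside 7.30% of tested genes. The unadjusted threshold was passed within T3 by 9 members (11.5%), beside 11.4%, and within SR9243 by 11 members (14.1%), beside 15.9%. The shares among members were thus near or below the background. Within SR9243, 863 tested genes were called with all libraries. Leaving out SR9243 library 3, 7 or 8 left 0 members called there, beside 646, 609 and 631 tested genes. Leaving out SR9243 library 1, 4 or 10 left 1, beside 796, 673 and 703. Leaving out DMSO library 7 gave 3 members, beside 1313 tested genes. The fit used a spread estimate shared by all treatments, so DMSO libraries also enter the SEs and p-values within T3 and SR9243.

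The member at rank 22 lay at 9.73 to 10.21 in T3 libraries 1 to 5 and at 9.13 to 9.78 in T3 libraries 6 to 10 (difference 0.47, SE 0.11, limma adjusted p = 0.00734). The member at rank 50 lay at 4.01 to 4.72 in T3 libraries 1 to 5 and at 2.88 to 3.89 in T3 libraries 6 to 10 (difference 0.98, SE 0.22, limma adjusted p = 0.00702). This member was in the compressed part of the scale with T3, where 1 library was at the lowest value. In SR9243 it went the other way, at 4.60 to 4.71 in libraries 1 to 5 and 5.11 to 5.81 in libraries 6 to 10 (difference -0.85, SE 0.22, limma adjusted p = 0.0223). The member at rank 69 differed within SR9243 by -1.08 (SE 0.30, limma adjusted p = 0.0377). Whether these differences differ between the treatments was not tested. Without DMSO libraries 4 and 7 the T3 minus DMSO difference was -0.93 at rank 50 and -0.98 at rank 69, above the limit of the rule. At rank 22 it was -1.34.

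With T3 and DMSO compared only among libraries of the same numbers, all 78 members were lower with T3 in both, beside 42.5% of tested genes. The average of these differences is the one the rule required to be at or below -1, so the shared direction is largely fixed by the choice of members. The median difference was -1.18 in libraries 1 to 5 and -1.26 in libraries 6 to 10, and it was at or below -1 in both for 43 members. The SR9243 difference was inside the window for 54 members in libraries 1 to 5 and for 42 in libraries 6 to 10. It ran from -0.77 to 1.33 in the first and from -1.07 to 0.69 in the second.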

How the data were processed

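The deposited table holds log2-like values, which the authors made by normalising and variance-stabilising counts, for 22816 Ensembl gene IDs in 30 libraries. Per the labels' protocols, libraries were stranded, poly(A)-selected and read in pairs of 150 bases; the submitters' processing notes name kallisto 0.46.1 and FastQC 0.11.8. Build, annotation and the program behind the values: not given in the sources used here. Groups and library numbers came from the sample titles. The values are not counts, so no count model was used. The 22615 genes that exceeded the lowest value in 10 or more libraries were tested in R 4.3.3 with limma 3.58.1 (moderated by eBayes with trend, treatment as the factor, all groups fitted together, two-sided, Benjamini-Hochberg adjustment, threshold 0.05). Libraries 1 to 5 and 6 to 10 were contrasted within treatments in a second fit. The fits were tested on simulated data. Deviations from group means were clustered by average linkage on 1 minus the correlation, with a limit of 0.6 (SciPy 1.17.1). The named-gene rule was the 2 members with the most negative T3 minus DMSO difference where IDs cannot be named; 0 of 22816 IDs matched the reference table, so gene lists by symbol could not be applied. Members shown by rank outside the first ranks were chosen after their values were seen. The members, the lists and the split by library number were chosen with earlier results of these data known. Alternatives tried were other scalings, filters, variance models, limits, group medians, a replicate block and leaving out libraries.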

Additional observations from a re-analysis of the deposited data

Results flagged for a closer look

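A library whose gap to its nearest neighbour, over the range of its group of 10, passed Dixon's 95% critical value was found in 3 of 33 groups examined; chance marks about 1 in 20 groups of independent values. All 3 are in co-varying groups formed by clustering these same deviations, so that rate does not apply to them and the values are a description. In co-varying group B, DMSO library 7 lay at -1.61 from the DMSO mean and T3 library 10 at -0.48 from the T3 mean. In co-varying group C, T3 library 10 lay at -0.35 from the T3 mean.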

How the results depend on the processing

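Among the alternatives tried, the count of 78 members moved by over 1.5 times with other limits: 14 genes with a T3 limit of -1.5 and 189 with an SR9243 window of -0.5 to 0.5. It was 91 with library medians set equal (72 shared with the 78), 81 with quantile normalisation (71 shared), 83 with group medians (48 shared) and 66 to 91 without single libraries. Leaving out DMSO libraries 4 and 7 together was chosen after seeing the data, as was leaving out libraries in the contrast of library numbers. Without single libraries, genes called for T3 against DMSO numbered 11046 to 11635, for SR9243 against DMSO 5852 to 7240 and for SR9243 against T3 6908 to 8868. Between libraries 1 to 5 and 6 to 10, calls ranged from 580 to 900 within T3, from 609 to 1313 within SR9243 (highest without DMSO library 7) and from 4 to 84 within DMSO, where 17 were called with all libraries and 6 with quantile normalisation. With a replicate block, calls were 11131 for T3 against DMSO, 6197 for SR9243 against DMSO and 7453 for SR9243 against T3, where the fit without it gave 11430, 6568 and 7841. No pairing by number was seen: deviations correlated above 0.1 in 7 of 30 same-numbered pairs, and in 7 of 60 cases a library matched its own number best in another group. For the 2 named genes the T3 difference ran from -7.87 to -7.70 and from -4.55 to -4.34 without single libraries. No library totals are held, so limits from depth were not computed.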
